A study of Mus musculus with 21 samples.

Results

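The respiratory chain genes described here are the nuclear genes whose symbols begin with Nduf (complex I and its assembly factors), Sdha to Sdhd (complex II), Uqcr (complex III), Cox4 to Cox8 (complex IV) and Atp5 (complex V, the ATP synthase). Pseudogene symbols were left out. Among the 24322 genes deposited, 92 matched, and the 88 that reached 1 FPKM (fragments per kilobase of transcript and relative to all mapped fragments, a level corrected for gene length) in at least 3 of 21 libraries were kept. They comprised 43 genes of complex I, 4 of complex II, 8 of complex III, 16 of complex IV and 17 of complex V. Ndufa4 and Ndufa4l2 were counted with complex IV, since Ndufa4 is known as a subunit of that complex despite its name.

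The study asked how valproic acid (VPA, an antiepileptic drug and histone deacetylase inhibitor) taken in pregnancy affects the offspring's neural stem and progenitor cells. All groups were C57BL/6 mice carrying Nestin-EGFP, a transgene in which the Nestin promoter drives green fluorescent protein, and dams received either methylcellulose, the vehicle, or VPA at 300 mg/kg/day by mouth on embryonic days 12, 13 and 14. GFP-positive cells were flow sorted. On embryonic day 15 (E15) they came from forebrain, and at postnatal day 5 (P5) and 12 weeks of age from hippocampal dentate gyrus. Control and VPA offspring were sampled at each age, and a further 12-week VPA group had voluntary running; no control group ran. Each of the 7 groups had 3 libraries of polyadenylated RNA. The labels do not say whether the 3 libraries of a group came from separate litters or animals, so p-values measure the spread between libraries, which may be technical. E15 and P5 differ in tissue as well as age, and the effects of tissue and age on that contrast cannot be told apart.

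The respiratory chain of the inner mitochondrial membrane passes electrons from NADH (through complex I) and succinate (through complex II) to ubiquinone, then through complex III and cytochrome c to oxygen at complex IV. The proton gradient built by complexes I, III and IV drives complex V, which makes ATP. Most subunits are encoded in the nucleus, and a small catalytic set in mitochondrial DNA. Neural stem cells are known for high glycolysis, and oxidative phosphorylation is known to gain weight as their progeny become neurons.

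Column sums of FPKM ran from 465610 to 574594. An E15 library had 16116 to 16734 genes above 0, a P5 library 17251 to 17601 and a 12-week library 12019 to 15210. Several libraries stood apart. Running rep3 had the fewest genes above 0 and took 27.8% of its summed FPKM from small RNA genes, against 13% to 19.5% in the other 20. It also listed 5 of the 88 genes at 0, against 0 to 3 elsewhere. At E15, VPA rep3 had a summed FPKM of 11167.3 over 5 choroid plexus markers, against 11.5 to 155.5 in the controls. At 12 weeks, control rep1 had a sum of 199 FPKM over 6 microglia markers, against 22.26 in control rep2 and 38.07 in control rep3. Its sum over 4 erythroid markers was 823.6, against 0 and 162.1. The summed FPKM of 11 neural stem cell markers was 466.5 to 635.5 in E15 libraries, 2543.7 to 3059.6 in P5 libraries and 875.8 to 1878.2 in 12-week libraries, and none was at 0 throughout a group. No mitochondrially encoded gene was among the symbols, so every level below is of a nuclear transcript. Because cells were pooled before sequencing, fewer cells of a type and less RNA per cell cannot be told apart.

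The promoters of these genes are known targets of NRF1, of the ETS factor GABP (also called NRF2) and of YY1, so the starts of transcription were searched for their motifs. RefSeq windows on GRCm38.p6, from 250 bases before to 50 after the start, were matched by symbol for 71 of the 88 genes, 76 windows in all. Each motif was searched on both strands, and none contains another. The NRF1 motif, GCGCA and GCGC with any 1 base between them, lay in 20 of the 76 windows (26.3%), against 4.6% of all 32851 windows and 9.13% of the 13861 windows of genes that passed the same expression filter. The ETS motif CCGGAAG lay in 17 windows (22.4%), against 8.86% and 15.7%. The YY1 motif AAGATGGCG lay in 7 (9.21%), against 1.4% and 2.68%. The shorter SP1 motif GGGCGG lay in 42.1%, above the 35.7% of all windows and below the 61.4% of windows of expressed genes, and CCAAT lay in 42.1%, against 37.4% and 37.5%. Median GC content was 58% in these windows, 52.7% in all windows and 60.7% in those of expressed genes. A match describes letters and shows no binding. The stretches below lie upstream of the start, 1 or more for each complex, and were chosen because each holds an NRF1 or ETS match, in capitals. They read 5′ to 3′ in the direction of the gene, and all 6 genes lie on the minus strand. Uqcr11 and Atp5e carry the ETS motif, Atp5e as its reverse complement, and the other 4 carry the NRF1 motif.
Ndufb4, an accessory subunit of complex I, chr16:37654454-37654573: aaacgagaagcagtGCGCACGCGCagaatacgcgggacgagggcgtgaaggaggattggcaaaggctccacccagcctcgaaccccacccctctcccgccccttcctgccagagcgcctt
Sdha, the flavoprotein of complex II, chr13:74350281-74350308: ggaggggcgtgttGCGCAGGCGCagaat
Uqcr11, a small subunit of complex III, chr10:80406831-80406950: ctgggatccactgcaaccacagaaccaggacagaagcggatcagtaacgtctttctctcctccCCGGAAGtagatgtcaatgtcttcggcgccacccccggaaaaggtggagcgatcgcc
Cox6a1, the widely expressed form of a complex IV subunit, chr5:115348982-115349101: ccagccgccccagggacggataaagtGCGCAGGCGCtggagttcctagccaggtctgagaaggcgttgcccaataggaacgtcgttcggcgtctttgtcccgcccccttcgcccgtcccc
Atp5h, the d subunit of the stalk of complex V, chr11:115419963-115420082: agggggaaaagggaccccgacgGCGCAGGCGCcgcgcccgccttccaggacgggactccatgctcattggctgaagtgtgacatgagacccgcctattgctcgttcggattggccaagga
Atp5e, the epsilon subunit of complex V, chr2:174464106-174464225: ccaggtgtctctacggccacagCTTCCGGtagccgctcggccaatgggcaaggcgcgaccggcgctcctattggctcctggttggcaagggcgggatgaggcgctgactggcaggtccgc

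The respiratory chain genes were abundant, and most were detected in every library. A mean of 100 FPKM or more over the 21 libraries was reached by 46 of the 88, 37 averaged 10 to 100, and 5 averaged less than 10. Among the 14662 genes that passed the filter, 66 of the 88 were in the top 10 percent by mean, and the median gene of the set stood at percentile 94.6. Their transcripts were short, with a median longest transcript of 1170 bases against 3321 for the 14059 expressed genes that could be placed on GENCODE vM21. The 86 that were placed lay on 19 chromosomes. In every one of the 21 libraries 72 were at 10 FPKM or more, and 80 were at 1 FPKM or more. The highest mean belonged to Cox4i1 (600.3 FPKM), the common form of complex IV subunit 4, followed by Atp5b (459.8), the catalytic beta subunit of the ATP synthase, and Atp5e (457.5). The lowest belonged to the complex I assembly factors Ndufaf5 (8.26) and Ndufaf6 (7.95) and to Cox7a1 (5.58), a complex IV form known from muscle.

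Levels were graded by role. In complex I at E15 the 7 catalytic core genes had a median of 72.3 FPKM over their control means, the 29 accessory subunits 87.7 and the 7 assembly factors 11.3. Ndufs1, the largest iron-sulphur subunit of complex I, stood at 39.2 ± 1.77 FPKM in E15 controls, 38 ± 2.23 at P5 and 44.6 ± 8.39 at 12 weeks (SD, n = 3, as for every mean below). Ndufv1, which binds NADH, stood at 86.3 ± 7.97, 70.4 ± 1.28 and 74.4 ± 10.8. The assembly factors, which help build the complex and are not part of it, thus had a median several times lower than those of the subunits they help assemble. Single genes crossed this order, with the assembly factor Ndufaf2 at 43.1 FPKM in E15 controls, above Ndufs1. Complex II had a median of 79.2 FPKM in E15 controls and complex III of 136.2. Uqcrc1, a core subunit of complex III, was at 111.3 ± 8.96, 99.4 ± 4.28 and 110.9 ± 11.4 FPKM at the 3 ages, and Uqcrfs1, the Rieske iron-sulphur protein, at 103 ± 8.18, 97.8 ± 5.55 and 94.7 ± 20.8. Neither gene differed between ages by much more than the SD of its 12-week libraries.

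Complexes IV and V held the most abundant transcripts. The 12 common complex IV genes had a median of 206.0 FPKM in E15 controls, 201.6 at P5 and 219.1 at 12 weeks. Cox5b, a zinc-binding subunit, was at 145.3 ± 25.6, 126.6 ± 7.18 and 153.2 ± 33.7. In complex V the 5 genes of the F1 head, where ATP is made, had a median of 321.1 at E15, 292.6 at P5 and 304.2 at 12 weeks. Atp5a1, the alpha subunit, was at 321.1 ± 32, 292.6 ± 7.27 and 304.2 ± 41 FPKM. Atp5s and Atp5sl carry the family's name but are not subunits of the enzyme, and at 4.04 and 18.2 FPKM in E15 controls they stood far below the rest. The median over the 7 stalk and membrane genes was 208.8 FPKM in E15 controls, 162.8 at P5 and 140.2 at 12 weeks. Gene by gene they did not fall in both steps. Their median log2 fold change was -0.11 from E15 to P5, with 5 of 7 below 0. From P5 to 12 weeks it was 0.058, with 6 of 7 above 0.

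**Figure D1:**
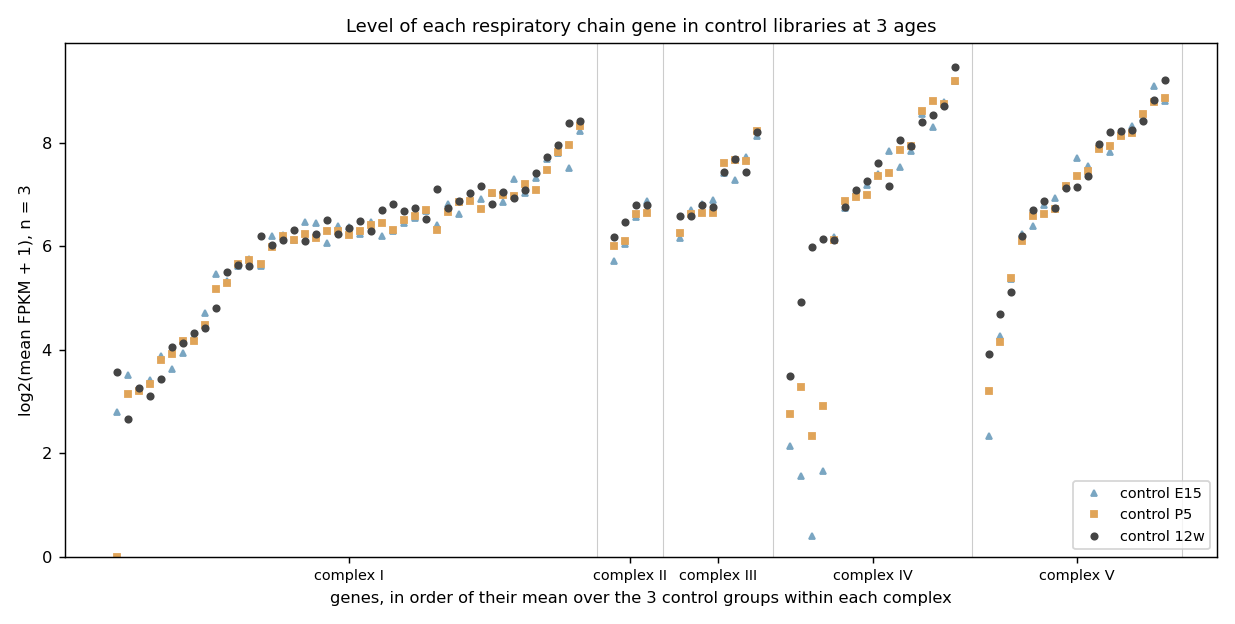
Mean level of each of the 88 genes in control libraries at E15, P5 and 12 weeks, as log2(mean FPKM + 1), with 3 libraries per point and genes ordered within each complex. The points of the 3 ages lie close together for most genes and spread apart for restricted complex IV forms such as Cox4i2 and Ndufa4l2.

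The order of the genes by level was similar across groups, and least so for the running group. Spearman's rank correlation of group means over the 88 genes was 0.994 between control and VPA at E15, 0.995 at P5, 0.985 between E15 and P5 controls and 0.973 between P5 and 12-week controls. It was lowest for pairs with the running group, from 0.877 with VPA at E15 to 0.893 with P5 controls. At the same age the running group was at 0.887 with controls and 0.888 with sedentary VPA mice. Every other pair was at 0.942 or more. These are descriptions over genes that share their libraries. Control means at the 3 ages lay within 0.5 on the log2(FPKM + 1) scale for 71 of the 88, and the median range was 0.247. The 6 whose control means lay more than 1 apart were Cox4i2, Ndufa4l2, Ndufs5, Cox6b2, Atp5s and Cox7a1.

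Complex IV has alternative forms of several subunits, and 4 of the 6 genes just named are among them. Cox4i2 (chr2:152754173-152765037, mm10), the alternative form of subunit 4 known for its high level in lung, was at 0.194, 0.685 and 0.0689 FPKM in E15 controls, 5.63, 2.94 and 3.65 in P5 controls, and 36.1, 92.3 and 60.2 in 12-week controls. The 3 ages did not overlap. Its share of the summed FPKM of Cox4i1 and Cox4i2 was 0.682% ± 0.211 at P5 and 8.05% ± 3.08 at 12 weeks. Ndufa4l2 (chr10:127514967-127517154), a hypoxia-inducible relative of Ndufa4, was at 1.74, 2.41 and 2.37 FPKM in E15 controls, 6.18, 5.62 and 7.94 at P5, and 57.3, 74.7 and 77.2 at 12 weeks. Its share of the Ndufa4 pair was 0.683% ± 0.0172, 1.45% ± 0.221 and 16% ± 3.04. So the main form remained the major transcript of each pair at every age. Ndufa4l2 overlaps Shmt2 on the other strand, and since the strand used in counting is not stated, reads of the 2 genes cannot be told apart where they overlap.

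Other alternative forms were scarce or erratic. Cox6b2, known from testis, was at 2.48, 1.05 and 2.35 FPKM in E15 controls and at 16.1, 41 and 30.8 in 12-week controls. Cox7a1 was at 5.26, 3.88 and 1.10 FPKM in E15 controls, 7.45, 0 and 23.4 in 12-week controls, and 0 in all 3 running libraries. An exact 0 can be a failed estimate in such tables, so these are given as listed. Cox7a2, the common counterpart of Cox7a1, was at 168.2, 164.3 and 193.7 FPKM in controls at the 3 ages. Another 4 symbols matched the rule but did not pass the filter. Cox6a2, a muscle form, reached at most 0.451 FPKM, and Cox8c was listed at 0 throughout. Cox8b and Cox7b2 each passed 1 FPKM in 1 library. Their partners Cox6a1, Cox8a and Cox7b were at 378.4, 184.8 and 71.9 FPKM in E15 controls. Just inside the filter was Ndufs5, an accessory subunit of complex I, with 5 libraries at 1 FPKM or more. It was at 17.8 FPKM in 1 E15 control library, 32.6 in 1 control and 65.1 and 61.7 in 2 VPA libraries at 12 weeks, and 1.52 in running rep2, while the other 16 libraries lay at 0 or near it.

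Complex V has 3 genes for subunit c, the ring that turns in the membrane. They encode the same mature protein. Atp5g3 supplied most of their summed FPKM, with 74.4% in E15 controls, 73.4% at P5 and 71.5% at 12 weeks. Atp5g2 was at 82.9 ± 6.77, 95.2 ± 1.81 and 102.5 ± 16.7 FPKM, and Atp5g1 was the scarcest at 40.2 ± 3.3, 41.1 ± 4.5 and 33.5 ± 13.1. Many of the 88 genes have processed pseudogenes of near-identical sequence, and how reads matching several places were assigned is not given in the sources used here.

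Within several groups, the genes moved together from library to library. In E15 controls rep1 held the lowest value for 80 of the 88 genes and rep2 the highest for 80, where the same libraries held the lowest value for 42.5% and the highest for 45.7% of the other genes. The median gene deviated from its group mean by -0.16 in rep1, 0.16 in rep2 and 0.0074 in rep3 on the log2 scale. The other genes deviated by -0.015, 0.025 and -0.0032, and 75 cytosolic ribosomal protein genes by -0.23, 0.24 and -0.01. In the E15 VPA group rep3, the library with choroid plexus markers, held the highest value for 75 of the 88, against 34% of the other genes. At P5 the deviations of the median gene were smaller, between -0.051 and 0.044. Even so, control rep2 held the lowest value for 58 of the 88, against 35.9% of the other genes. VPA rep3 did so for 48, against 27.5%. At 12 weeks control rep1, which stood apart in microglia and erythroid markers, held the lowest value for 61 of the 88, against 32.7% of the other genes. Its median deviation was -0.24, and in VPA mice rep1 and rep3 deviated by -0.12 and 0.15. The running libraries showed no such shift, with deviations of 0.035, -0.0091 and 0.036.

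The spread between replicates was smallest at P5 and largest at 12 weeks. The median SD over replicates on the log2(FPKM + 1) scale was 0.179 in E15 controls, 0.0809 in P5 controls and 0.342 in 12-week controls, against 0.101, 0.0791 and 0.267 for 8446 other genes with a mean of 10 FPKM or more. In the running group it was 0.436 against 0.368. The respiratory genes were thus as tight as other genes at P5 and more variable than them at E15 and 12 weeks.

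**Figure D2:**
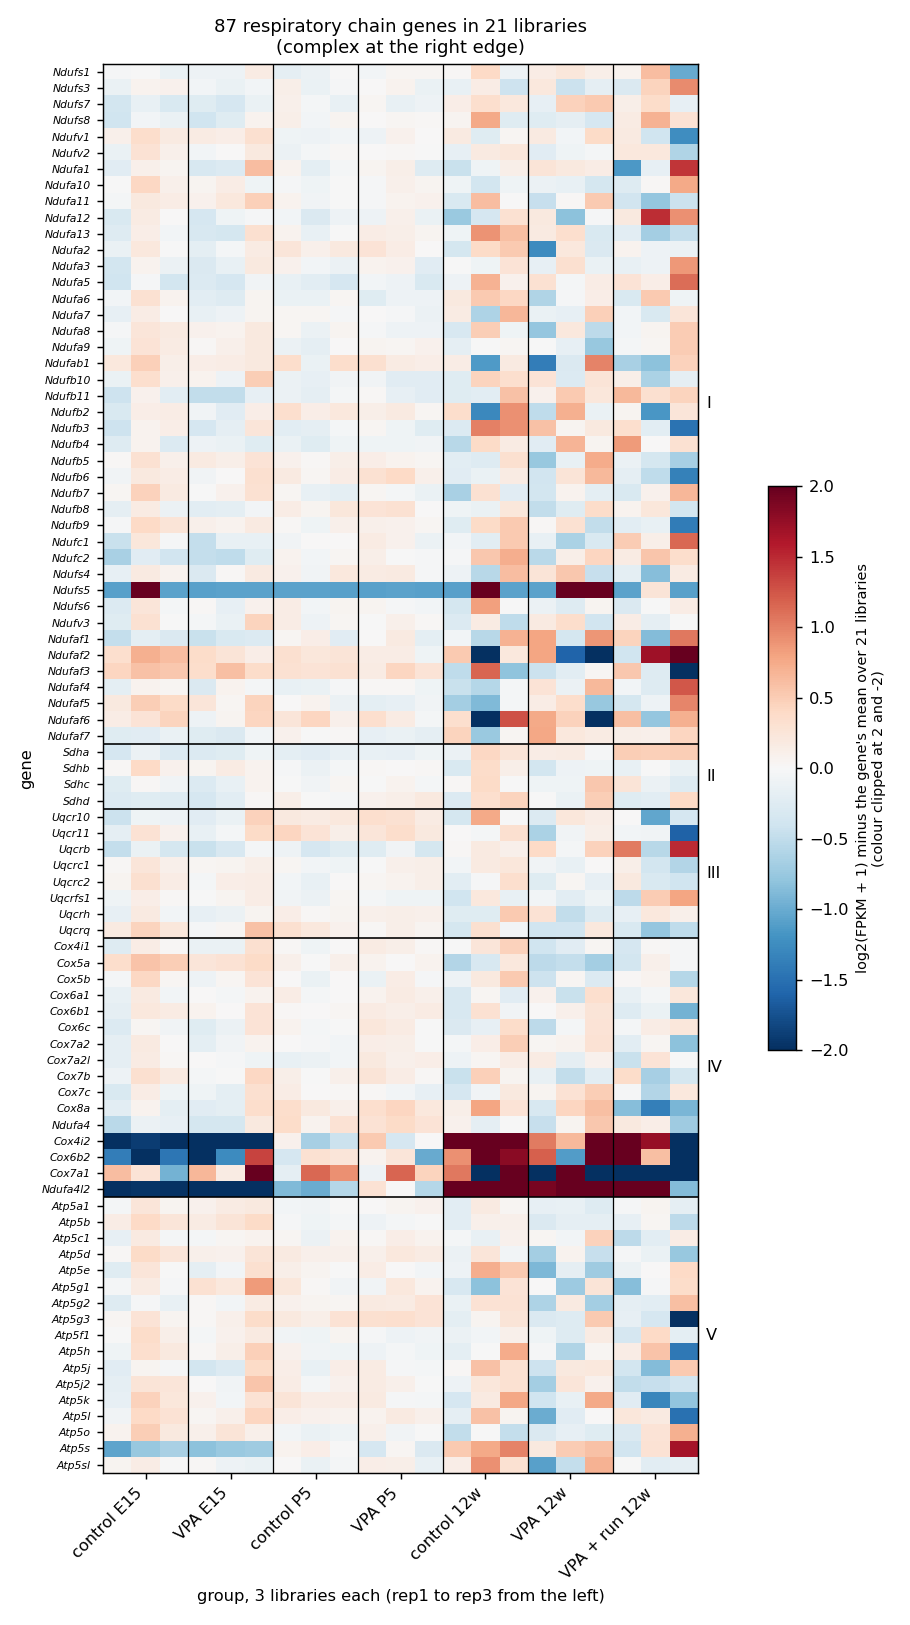
Of the 88 genes, 87 (rows, by complex) in each of the 21 libraries (columns, by group), coloured by log2(FPKM + 1) minus the mean of that gene over all libraries and limited to 2 either way. Whole columns shift together within E15 groups, P5 columns are even, and the 12-week columns are the most mixed.

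As a whole, the set took nearly the same share of the measured transcriptome at every age. The 88 genes made up 2.39% ± 0.2 of summed FPKM in E15 controls, 2.41% ± 0.0709 in P5 controls and 2.4% ± 0.291 in 12-week controls. In VPA groups the share was 2.42% ± 0.24 at E15, 2.44% ± 0.0569 at P5 and 2.2% ± 0.2 at 12 weeks, and it was 2.18% ± 0.154 with running. At 12 weeks the libraries were at 2.08%, 2.47% and 2.65% in controls, 2.01%, 2.19% and 2.41% in VPA mice, and 2.25%, 2.28% and 2% in running VPA mice. The ranges of the 3 groups overlapped at 12 weeks, and the difference in means was smaller than the SD of the controls. These sums include small RNA genes, which took 27.8% in running rep3. With small RNA genes left out, the running libraries were at 2.65%, 2.63% and 2.77%, so that rep3 was the highest of them. The means were then 2.88% ± 0.287 in controls, 2.69% ± 0.217 in VPA mice and 2.68% ± 0.0757 with running. Complex V took 0.563%, 0.703% and 0.729% in 12-week controls, 0.484%, 0.569% and 0.626% with VPA, and 0.569%, 0.587% and 0.492% with VPA and running. These ranges, with small RNA genes counted in the sum, overlapped as well.

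**Figure D3:**
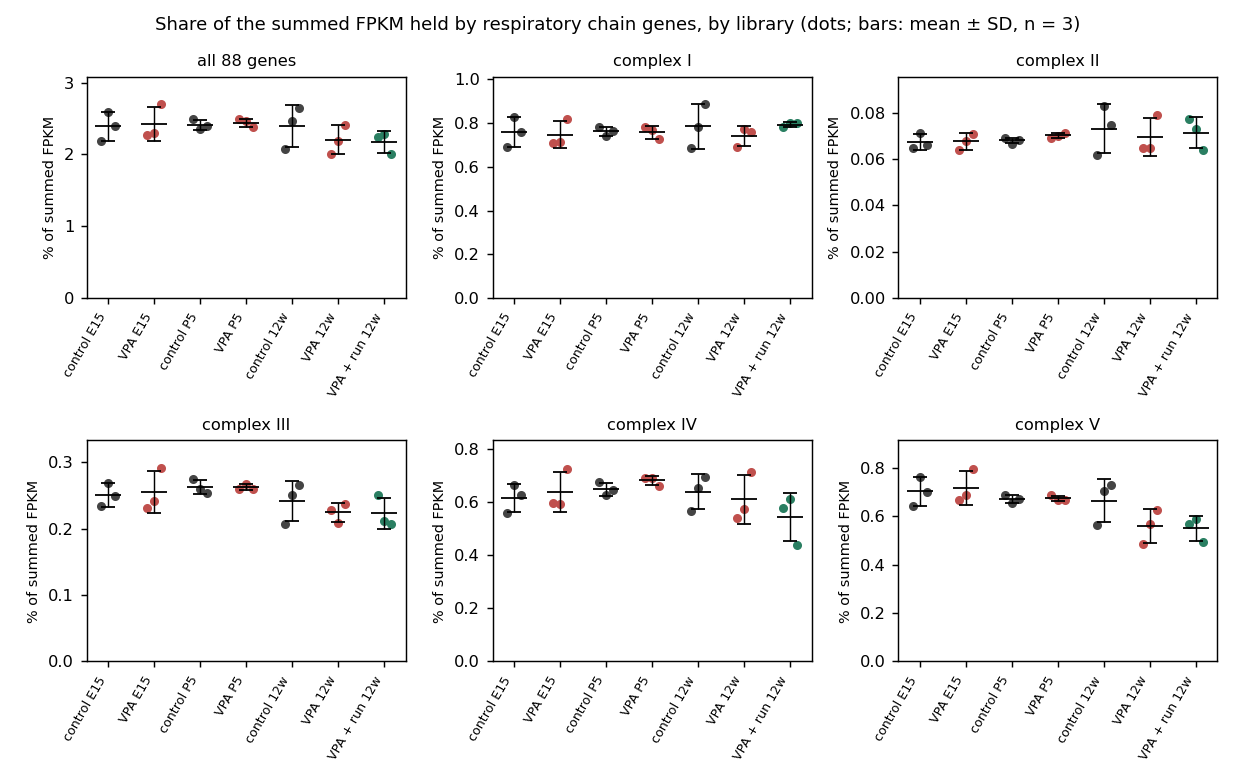
Share of summed FPKM taken by all 88 genes and by each complex, in percent, with 1 dot per library and the mean ± SD of 3 libraries for each of the 7 groups. Controls average 2.39%, 2.41% and 2.4% at the 3 ages, and the 12-week VPA and running groups average 2.2% and 2.18% with overlapping dots. The sums include small RNA genes, which take 27.8% in running rep3.

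The first comparison asked whether VPA changed these genes 1 day after the last dose. At E15 no respiratory gene passed the test (limma, Benjamini-Hochberg adjusted p under 0.05), where 0.0405% of all 12345 genes tested did. An unadjusted p under 0.05 was reached by 3 of the 86 tested, against 10.5% of all genes. Groups did not overlap for 2 of the 86 (1 higher and 1 lower with VPA), against 17.5% of all genes (8.19% higher and 9.32% lower). The median log2 fold change was -0.013 (all genes -0.009), with 38 genes above 0 and 48 below. By complex the medians were -0.039, 0.0094, -0.027, 0.046 and 0.028 for I to V.

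Among single genes at E15, Ndufa4l2 was at 1.42, 1.18 and 0.541 FPKM in VPA libraries, all below the controls. Its log2 fold change was -0.65 ± 0.2 (SE; limma, adjusted p = 0.392), and 5 pericyte markers summed to 9.85 to 11.8 FPKM with VPA and 14.4 to 15.5 without, their part in the result not tested. Atp5g1 was at 38, 44 and 38.6 FPKM in controls and 48.5, 45.5 and 71.5 with VPA. The groups did not overlap, but VPA rep3 stood far above its partners. The log2 fold change was 0.42 ± 0.17 (limma, adjusted p = 0.46), and 0.22 without VPA rep3. Ndufaf2, an assembly factor, differed by -0.3 (adjusted p = 0.454), Cox5a by -0.17 (0.515), Atp5g2 by 0.19 (0.497) and Cox7a1 by 0.99 (0.566). Cox7a1 was at 16.3 FPKM in VPA rep3, against 5.46 and 3.53 in the other VPA libraries, and its difference was 0.43 without that library and 0.53 without control rep3.

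At P5 the same comparison was made in the dentate gyrus. No respiratory gene passed at P5 either, against 2.24% of 13328 genes tested, and 8 of the 87 tested had an unadjusted p under 0.05, against 24% of all genes. Control and VPA libraries did not overlap for 9 of the 87 (7 higher and 2 lower with VPA), where 29.4% of all genes showed such separation (13.8% higher and 15.6% lower). The median log2 fold change was 0.036 (all genes -0.004), with 57 of 87 above 0.

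The gene nearest the threshold at P5 was Cox7a2l (chr17:83501918-83517330), also called SCAFI, a protein known to join complexes III and IV into supercomplexes. It was at 119, 122.1 and 127.8 FPKM in controls and 151.9, 142.4 and 144.5 with VPA. Every VPA library was above every control. The log2 fold change was 0.25 ± 0.051 (limma, adjusted p = 0.0584), and the adjusted p was 0.0274 with small RNA genes removed, 0.0298 with library weights and 0.0485 without control rep3. Cox7a2l passed in no other alternative run of this comparison. At E15 the same gene was at 133.2 ± 16.2 in controls and 129.2 ± 4.33 with VPA. Ndufa4l2 was at 15.1, 12.3 and 7.87 FPKM with VPA at P5, 1 library within the control range. It differed by 0.72 ± 0.22 (limma, adjusted p = 0.116). The 5 pericyte markers, none of them at 0, summed to 87.2 to 103.5 FPKM in controls and 135.9 to 252.5 with VPA, with 2 of 5 past the test, and their part in the result was not tested. Atp5g2 was at 95.2 ± 1.81 and 106.1 ± 4.48 FPKM, a difference of 0.15 (adjusted p = 0.123). Lower with VPA, without passing, were Ndufaf7, which methylates a core subunit during assembly, at 14.7 to 15.1 FPKM against 16.6 to 17.8 (-0.19 ± 0.054, adjusted p = 0.0994), Ndufaf2 (-0.2, 0.17; -0.12 without VPA rep3) and Atp5s (-0.27, 0.202).

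At 12 weeks no gene of any kind passed the test of VPA against control (limma, 0 of 13847 genes, 0%), and 2 of the 88 respiratory genes had an unadjusted p under 0.05, against 6.39% of all genes. The median log2 fold change was -0.11 (all genes -0.0065), with 60 of 88 below 0, against 7022 of all 13847 genes. By complex the medians were -0.022, -0.069, -0.16, -0.23 and -0.26 for I to V, and 14 of 17 genes of complex V and 12 of 16 of complex IV lay below 0. For 5 genes (1 higher and 4 lower) the groups did not overlap, against 15.5% of all genes (7.83% higher and 7.63% lower). Leaving out 1 library at a time moved the median of the 88 genes from -0.27 to -0.05. In the same comparison 75 of 76 cytosolic ribosomal protein genes lay below 0, with a median of -0.37, and their part in the result was not tested.

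Atp5e (chr2:174461072-174464105), whose promoter stretch is printed above, had the smallest p at 12 weeks. It was at 412, 736.5 and 637.6 FPKM in controls and 238.6, 392.9 and 272.2 with VPA. The groups did not overlap. The log2 fold change was -0.97 ± 0.26 (limma, adjusted p = 0.557), and in a fit of all 21 libraries, which shares 1 estimate of the spread over all ages, the adjusted p was 0.0183. It was the 1 respiratory gene of 88 to pass in that fit, against 3.64% of all genes. At E15 it was at 448.1 ± 74.5 and 458.1 ± 83.4, and at P5 at 463.5 ± 19.5 and 454.4 ± 34.1. Cox4i1 was at 588.6, 705.9 and 821.8 FPKM in 12-week controls and 448.3, 505.4 and 612.9 with VPA. The ranges overlapped, with a difference of -0.43 (adjusted p = 0.772). Higher with VPA, without passing, were Cox7c (0.35, 0.849), Ndufaf4 (0.62, 0.859) and Ndufaf7 (0.47, 0.863). Ndufaf7 was at 0.14 without control rep2 and 0.74 without control rep1, and Cox7c at 0.22 without control rep1.

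All 4 restricted complex IV forms lay below 0 at 12 weeks, with a median of -0.92. Cox4i2 was at 11.8, 8.78 and 33.5 FPKM with VPA, all below the controls, at a log2 fold change of -1.87 ± 1.05 (limma, adjusted p = 0.817). Its share of the Cox4i pair was 3.16% ± 1.81, against 8.05% ± 3.08. Ndufa4l2 was at 48.5, 53.8 and 61.2 FPKM with VPA against 57.3 to 77.2. The 5 pericyte markers, none at 0, summed to 918.3 to 2082.8 FPKM in controls and 635.5 to 925.5 with VPA, all 5 below 0 without passing, while all 5 oligodendrocyte precursor markers lay above 0 (median 0.94). The part of these in the result was not tested.

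Running was given only to VPA mice, so its effect was read against sedentary VPA mice. No gene passed (limma, 0% of 13847), and 10 of the 88 respiratory genes had an unadjusted p under 0.05, against 11.3% of all genes. The median log2 fold change was -0.011 (all genes -0.055), with 44 genes on either side of 0. Running and sedentary libraries did not overlap for 9 genes (6 higher and 3 lower), against 15.5% of all genes (6.98% higher and 8.48% lower). Differences of more than 0.5 in either direction were seen for 23 of the 88, against 37.3% of all genes, and for 12 of the 88 in the comparison of VPA with control at this age, against 28.4%. In the fit of all 21 libraries 8 of the 88 passed (6 higher and 2 lower), against 11.6% of all genes (4.84% higher and 6.74% lower).

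Markers of other cells differed between the same libraries. All 5 oligodendrocyte precursor markers were lower in every running library than in every sedentary VPA library, without passing, with a median of -1.22. They summed to 1353.8 to 2399.2 FPKM in sedentary VPA mice, 725.9 to 905.6 with running and 843.2 to 1273.8 in controls. All 6 dividing cell markers lay above 0 without passing (median 0.68), with sums of 107.9 to 153.5 FPKM in sedentary VPA mice and 180.1 to 211.6 with running. None of these markers was at 0 throughout a group, and their part in the results on running was not tested.

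Cox8a (chr19:7215153-7217616), the common form of the smallest complex IV subunit, had the smallest p with running. It was at 215.7, 342.4 and 239.6 FPKM in sedentary controls, 159.1, 268.9 and 302.3 in sedentary VPA mice and 109.2, 76.4 and 105.1 in running VPA mice. Every running library was below every sedentary one. The log2 fold change against sedentary VPA mice was -1.29 ± 0.27 (limma, adjusted p = 0.147; 0.00203 in the fit of all 21 libraries). Cox6b1 was at 424.5, 453.9 and 503.7 FPKM in sedentary VPA mice and 351, 386.7 and 217.6 with running, lowest in rep3. It differed by -0.57 (adjusted p = 0.409), and Ndufb6 by -0.85 (0.365). Without running rep3 these values were -0.32 and -0.52.

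Higher with running, without passing, was Ndufc1, an accessory subunit of complex I, at 137.9, 104.7 and 216 FPKM against 87.4, 61.6 and 78.4. The groups did not overlap (0.95 ± 0.28; limma, adjusted p = 0.264). Ndufa12 was at 97.9, 239.9 and 163.1 against 98.2, 48.2 and 83.9 (1.08, adjusted p = 0.325). Atp5e was at 410.7, 448.9 and 584.5 FPKM with running, above the sedentary VPA libraries, with rep1 just below the lowest control and the other two within the range of the controls (0.69 ± 0.26, adjusted p = 0.364). Sdha was at 108.2, 107.2 and 107.9 FPKM with running, against 85.2, 86.1 and 75.7 in sedentary VPA mice and 70.6, 102.2 and 91.9 in controls. Running rep3, which stood apart in small RNA and genes detected, listed Cox4i2 at 0 where its partners had 23.8 and 20, and Ndufa4l2 at 6.28 where they had 69.1 and 57.9. Without it the median of the 88 genes was 0.06 in place of -0.011.

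Running VPA mice were also set against sedentary controls, which differ from them in both treatments. No gene passed (limma, 0%), 9 of the 88 had an unadjusted p under 0.05 (7.76% of all genes), and the median was -0.17 (all genes -0.069). Separation of the groups was seen for 8 genes (1 higher and 7 lower), against 13.1% of all genes (5.83% higher and 7.24% lower). In complex V 15 of 17 genes lay below 0, where 7741 of all 13847 genes did. Cox8a differed by -1.44 ± 0.27 (adjusted p = 0.541), Ndufa13 by -0.93 (0.612) and Cox4i2 by -2.89 ± 1.05 (0.615). Leaving out running rep3 took the difference of Cox4i2 to -1.38. Ndufa13, an accessory subunit also called GRIM-19, was at 46.9, 94.1 and 76.4 FPKM in controls and 43.1, 30.9 and 35.6 with running. The groups did not overlap. On the higher side were Ndufa12 (1.12, adjusted p = 0.612), Atp5o (0.56, 0.629; 0.32 without running rep3) and Ndufb11 (0.44, 0.643; 0.29 to 0.7 without control rep1 or rep3), and the 1 gene above the controls in every running library was Sdha. This comparison and the preceding one share the running libraries. With the fit of all 21 libraries 4 of the 88 passed, against 6.04% of all genes.

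**Figure D4:**
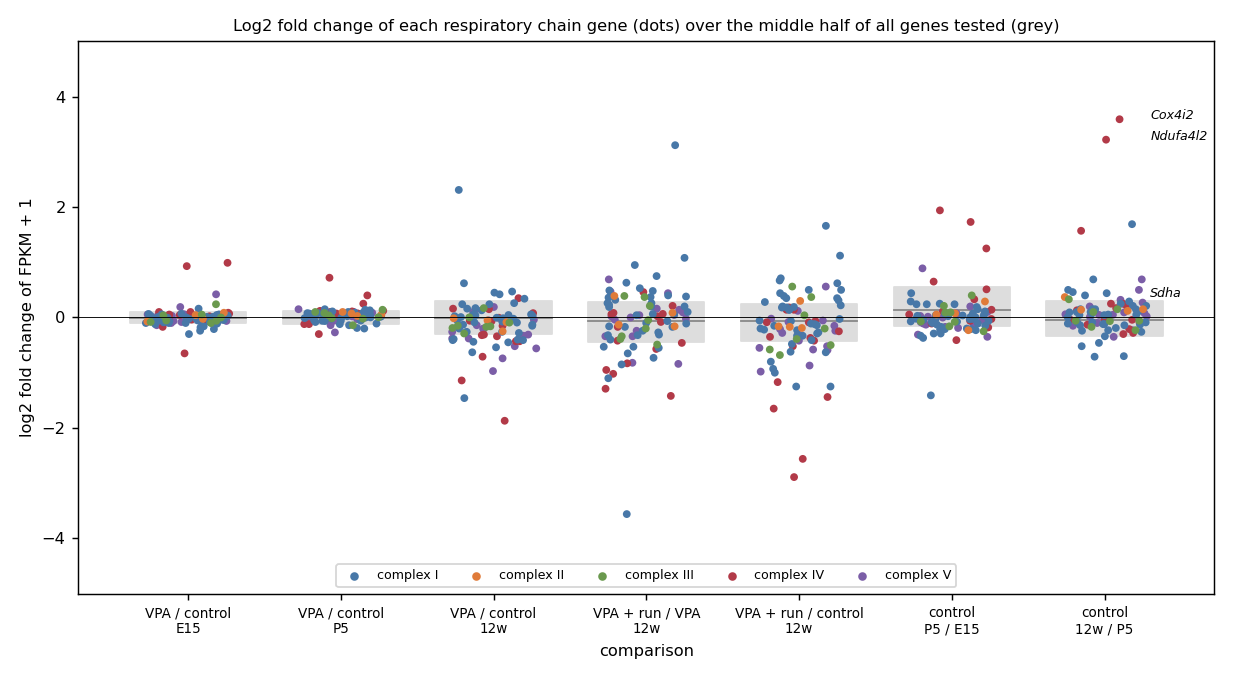
Log2 fold change of the respiratory chain genes tested (86 for VPA at E15, 87 for VPA at P5 and 88 otherwise), coloured by complex, over a grey box spanning the middle 50% of all genes tested. The dots crowd near 0 at E15 and P5, spread with VPA and running at 12 weeks, and reach 3.22 and 3.59 for Ndufa4l2 and Cox4i2 between P5 and 12-week controls.

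Between E15 forebrain and P5 dentate gyrus no respiratory gene passed the test in controls, although 20.7% of all 14662 genes did (limma). An unadjusted p under 0.05 was reached by 6 of the 88, against 30.4% of all genes. The ages did not overlap for 24 (13 higher and 11 lower at P5), against 66.5% of all genes (44.3% higher and 22.1% lower). The median log2 fold change of the 88 was -0.013 where that of all genes was 0.14. The median of all genes was 0.05 with median-of-ratios scaling and -0.06 with quantile scaling, so each difference is given here beside that of all genes. Cox5a, a matrix-side subunit of complex IV, was at 209.6, 242.5 and 229.5 FPKM at E15 and 176.1, 161.9 and 175.4 at P5. It did not overlap and differed by -0.41 ± 0.15 (adjusted p = 0.0718; 0.0184 with median-of-ratios scaling). Atp5b was at 546.6 ± 47.1 and 439.1 ± 9.95 FPKM, a difference of -0.31 ± 0.12 (adjusted p = 0.0902). Atp5o, which joins head and stalk, differed by -0.35 (0.223; -0.23 without E15 control rep2). Higher at P5 without passing were Atp5s (0.89 ± 0.34, adjusted p = 0.0791), Cox4i2 (1.94 ± 0.84, 0.121) and Ndufa4l2 (1.25 ± 0.55, 0.132), and none of the 6 genes overlapped between the groups. The size depended on scaling for Atp5b, at -0.43 with median-of-ratios (limma, adjusted p = 0.0195) and -0.15 with quantile scaling (0.38). Atp5s was at 0.42 with quantile scaling (0.535). Over the same step all 5 pericyte markers were higher, 4 past the test (median 1.78), with sums of 14.4 to 15.5 FPKM at E15 and 87.2 to 103.5 at P5. All 5 oligodendrocyte precursor markers rose (median 4.62), from sums of 5.15 to 9.64 FPKM to sums of 356.6 to 420.9. None was at 0 throughout a group, and their part in these differences was not tested. The tests between ages rest on a spread shared with the 12-week libraries. In a fit of the 2 control groups alone 21 of 87 passed (12 higher and 9 lower), against 60.9% of all genes (39.9% higher and 21% lower). With library weights 36 of 88 passed (17 higher and 19 lower), against 69.8% (45.3% higher and 24.5% lower).

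From P5 to 12 weeks in the dentate gyrus 3 respiratory genes rose in controls and none fell (limma), 3 of 88 against 12.6% of all 14662 genes (7.26% higher and 5.35% lower). An unadjusted p under 0.05 was reached by 5, against 25.4% of all genes. The ages did not overlap for 10, all higher at 12 weeks, against 37.5% of all genes (18.4% higher and 19.1% lower). The median log2 fold change was 0.051 (all genes -0.04), with 52 of 88 above 0. Among the 3 were the alternative complex IV forms described above. Ndufa4l2 rose by 3.22 ± 0.55 on the log2 scale (limma, adjusted p = 0.000768) and Cox4i2 by 3.59 ± 0.84 (adjusted p = 0.00803; 0.0934 with a pseudocount of 0.1). Their common partners did not pass: Ndufa4 was at 448.4 ± 47.6 and 368.9 ± 34.2 FPKM, and Cox4i1 at 588.8 ± 24.2 and 705.4 ± 117.

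Markers of several cell types, vessel cells among them, moved in the same direction over the same interval. All 5 pericyte markers and all 5 endothelial markers rose from P5 to 12 weeks, with median log2 fold changes of 2.89 and 3.13. The pericyte markers, none at 0, summed to 87.2 to 103.5 FPKM in P5 controls and 918.3 to 2082.8 in 12-week controls, and the endothelial markers to 2.36 to 5.07 and 97.6 to 269.6. All 5 oligodendrocyte precursor markers also rose, from a sum of 356.6 to 420.9 FPKM to one of 843.2 to 1273.8. So did all 6 microglia, all 5 oligodendrocyte and all 5 fibroblast markers, with medians of 2.17, 2.16 and 0.61. All 7 newborn neuron markers and all 4 erythroid markers were lower, with medians of -0.3 and -3.76. The part of these in the rise of Cox4i2 and Ndufa4l2 was not tested.

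The third gene was Sdha (chr13:74322254-74350280), the succinate-oxidising flavoprotein that serves both complex II and the tricarboxylic acid cycle. It was at 66.9, 65.8 and 69.4 FPKM in P5 controls and 70.6, 102.2 and 91.9 in 12-week controls. The groups did not overlap, with rep1 at 12 weeks just above the P5 range. Sdha rose by 0.37 ± 0.11 (limma, adjusted p = 0.0363). The call was lost with small RNA genes removed (adjusted p = 0.0574), with library weights (0.0565), with no trend (0.0729), with the replicate block (0.0917) and in a fit of the 2 control groups alone (0.151). It was also lost without 12-week control rep2 (0.171) or rep3 (0.111), without P5 control rep1 (0.106), rep2 (0.119) or rep3 (0.0766), and without P5 VPA rep2 (0.0503). Sdhb, its iron-sulphur partner, was at 99.4 ± 3.75 and 110.1 ± 25 FPKM, and all 4 genes of complex II lay above 0. Lower at 12 weeks without passing were Cox5a (-0.3, adjusted p = 0.237), Ndufaf5 (-0.52, 0.343) and Cox6a1 (-0.21, 0.462). Cox5a was at -0.12 without 12-week control rep1, and without rep3 it passed as lower at -0.52 (adjusted p = 0.0136). Cox6a1 ran from -0.13 without rep1 to -0.32 without rep2. Without 12-week control rep1, 5 of the 88 passed, all higher, against 15.7% of all genes.

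**Figure D5:**
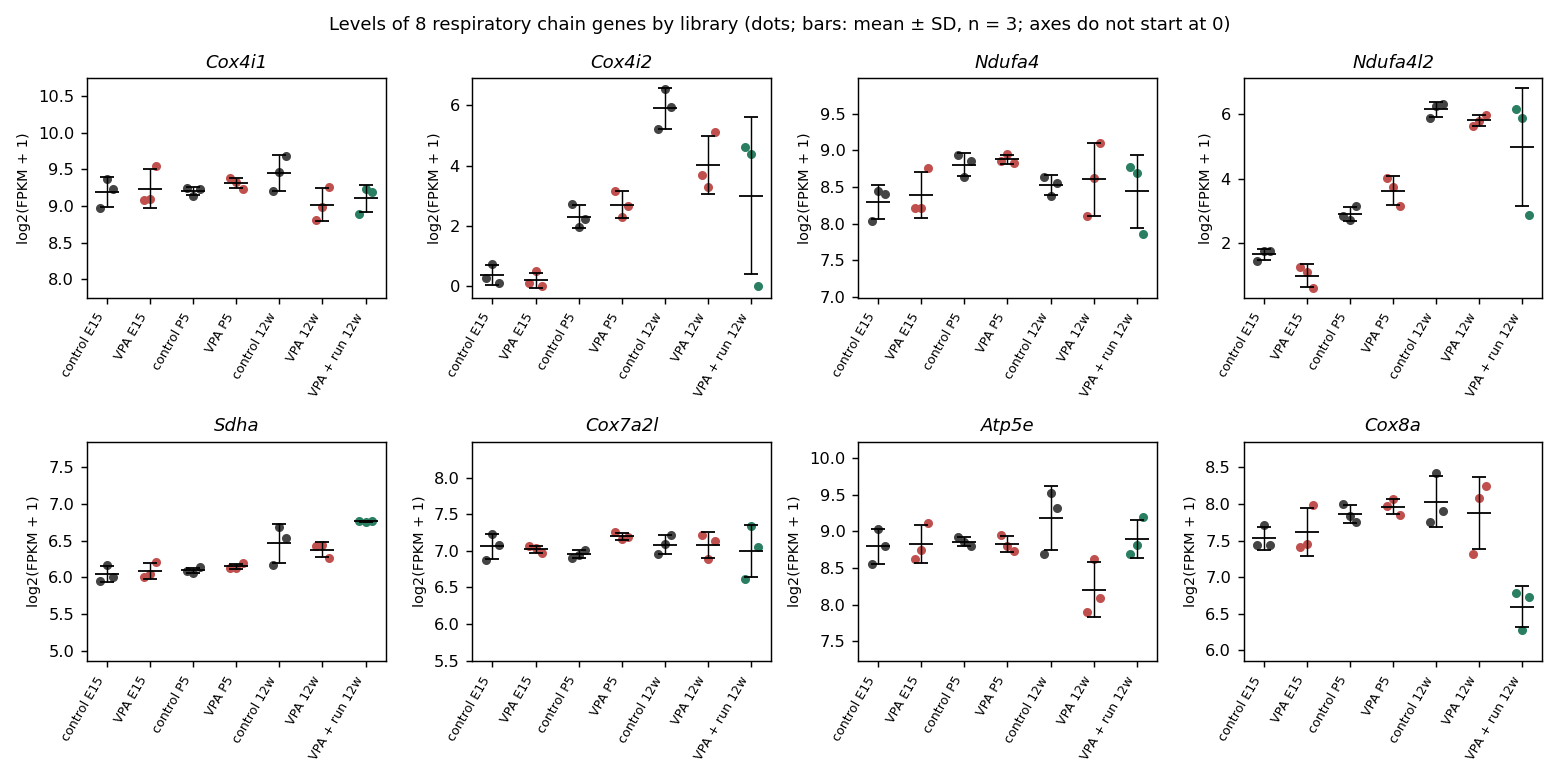
Log2(FPKM + 1) in every library of the 7 groups for Cox4i1, Cox4i2, Ndufa4, Ndufa4l2, Sdha, Cox7a2l, Atp5e and Cox8a. Cox4i2 and Ndufa4l2 climb with age while the control libraries of Cox4i1 and Ndufa4 span a far smaller range, and the 3 running libraries lie lowest for Cox8a.

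Whether the VPA effect differed between ages was tested directly. Between E15 and P5 no respiratory gene passed (limma), against 0.0955% of 14662 genes, and none of the 88 had an unadjusted p under 0.05, against 1.93% of all genes. Ndufa4l2, lower with VPA at E15 and higher at P5, had an interaction of 1.37 ± 0.78 (adjusted p = 1.0). Cox7a2l was at 0.29 and Uqcrc2 at 0.24, and on the negative side Atp5g1 was at -0.41, Cox7c at -0.22 and Cox6b2 at -1.23. Without E15 VPA rep3, the library with choroid plexus markers, these 3 values were -0.21, -0.07 and -0.19. With library weights 4 of the 88 passed, against 17% of all genes. Between P5 and 12 weeks none of the 88 passed, against 0.389% of all genes, and 4 had an unadjusted p under 0.05 (10.5% of all genes). Atp5e had the smallest p, with an interaction of -0.94 ± 0.3 (limma, adjusted p = 0.235; 0.0406 without 12-week control rep1). Cox4i1 was at -0.54 (0.384), Ndufaf7 at 0.67 (0.479), Cox7c at 0.48 and Ndufaf4 at 0.54. Without 12-week control rep2 Ndufaf7 was at 0.34, and without 12-week VPA rep3 Ndufaf4 was at 0.35. The median interaction of the 88 was -0.16 (all genes 0.00065), with 62 below 0.

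The neighbouring pathways were followed in 9 gene lists. They were cytochrome c, ATP export and inhibition, the assembly of complexes III to V, further complex I assembly factors, mitochondrial biogenesis, the tricarboxylic acid cycle, glycolysis, and mitochondrial and cytosolic ribosomal proteins. No gene of any list passed in the 3 VPA comparisons or the 2 running comparisons (limma). The shares of all genes were 0.0405%, 2.24% and 0% with VPA at E15, P5 and 12 weeks, and 0% in both running comparisons. Of the 28 assembly genes for complexes III to V, 1, 2 and 1 had an unadjusted p under 0.05 with VPA at E15, P5 and 12 weeks. For the 16 genes of the tricarboxylic acid cycle the counts were 0, 1 and 1. They were 6, 10 and 5 of 77 mitochondrial ribosomal protein genes, and 2, 3 and 18 of 76 cytosolic ones. The same unadjusted p was reached by 10.5%, 24% and 6.39% of all genes. At 12 weeks 25 of the 76 cytosolic genes did not overlap, all lower with VPA, against 7.63% of all genes lower. With running, 12 of the 77 and 6 of the 76 reached that p, against 11.3% of all genes.

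Between ages some of these genes passed, beside 20.7% of all 14662 genes tested from E15 to P5 and 12.6% from P5 to 12 weeks. From E15 to P5, 2 of 14 biogenesis genes rose, Ppargc1a by 1.4 ± 0.4 (limma, adjusted p = 0.0178) and Polg by 0.87 ± 0.19 (0.00289). Ppargc1a encodes the coactivator PGC-1alpha, which drives many respiratory genes, and Polg the mitochondrial DNA polymerase. Atpif1, the inhibitor of the ATP synthase, fell by 0.68 ± 0.17 (adjusted p = 0.00666), 1 of 5 genes of its list. The assembly factor Cox20 rose by 0.43 (0.0216), 1 of 28, and Suclg2 of the tricarboxylic acid cycle by 1.25 (0.0052), 1 of 16. In glycolysis 2 of 17 genes rose and 4 fell, among them Aldoc, a brain aldolase and astrocyte marker, which rose by 2.66 (2.69e-07), and Ldhb and Pkm, which fell by 0.91 and 0.7 on the log2 scale. In the same step 4 of 76 cytosolic ribosomal protein genes fell, and 0 of 77 mitochondrial ribosomal protein genes passed. Of the 77, 2 had an unadjusted p under 0.05, against 30.4% of all genes.

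From P5 to 12 weeks, where 12.6% of all genes passed, Ucp2, a mitochondrial carrier, rose by 1.81 ± 0.32 (limma, adjusted p = 0.00108), 1 of 5. Taco1, a translational activator of the mitochondrial subunit 1 of complex IV, fell by 1.49 ± 0.3 (0.00274), 1 of 28. Pprc1, a relative of PGC-1alpha, fell by 0.77 (0.00197), 1 of 14. In glycolysis Ldhb and Aldoc rose by 0.72 and 1.15 while Ldha fell by 0.94, 3 of 17. Mrpl27 rose and Mrps30 fell among the 77 mitochondrial ribosomal protein genes. None of the 16 tricarboxylic acid cycle genes passed, and 1 had an unadjusted p under 0.05, against 25.4% of all genes.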

How the data were processed

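The 21 libraries, 3 for each of 7 groups taken from the labels, were deposited as 1 value per gene. The values are FPKM: the deposited 12-week headers name FPKM, while E15 and P5 headers give only the sample, so that the unit was inferred there from the range and sums of the values. The authors used TopHat, Bowtie2, Cufflinks and Cuffdiff with mm10, per the submitters' processing notes; versions, the strand setting and any scaling across ages are not given in the sources used here. FPKM values keep no depth, so read depth is unknown and was not analysed here.

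Genes reaching 1 FPKM in 3 or more libraries of a fit were tested on log2(FPKM + 1), a scale that understates the change of low genes, with limma 3.58.1 in R 4.3.3 (lmFit, and eBayes with trend). Tests were two-sided, with Benjamini-Hochberg adjustment over all genes tested and a threshold of 0.05. E15 and P5 fits held 6 libraries each and the 12-week fit 9. Comparisons between ages, and of effects between ages, used all 21. The fitting code was tested on simulated data. The members and gene lists were chosen with earlier results of these data known. Genes were named by rule: up to 4 past the threshold in each direction, or otherwise the 3 with the smallest p, 11 core subunits, the paralogue sets, and the 3 highest and 3 lowest by mean; others named were chosen after their values were seen. The values of 1 member are not reported here by name, and it stays in the counts, medians and unlabelled points. Promoter windows came from RefSeq and gene positions from GENCODE vM21. Deviations from the group mean were correlated between control and VPA libraries of the same replicate number. At E15 the values were 0.126, 0.106 and 0.161, against -0.136 to 0.00711 for libraries of unlike number. At P5 they were 0.0471, 0.0634 and -0.0424, and at 12 weeks, including pairs with running libraries, -0.046 to 0.0262. Such low values do not settle whether libraries were paired, and the main tests held no replicate block. The alternatives were another pseudocount (0.1), no filter on low values or one of 5 FPKM, scaling by quantiles or by median ratios, removal of small RNA genes, library weights, no trend, a replicate block, another choice of libraries in the fit, and leaving out each library.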

Additional observations from a re-analysis of the deposited data

Results flagged for a closer look

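Signal was seen for 2 matched genes that did not pass the filter and so entered no comparison. Cox8b, a complex IV form known from muscle and brown fat, was at 35.4 FPKM in VPA rep3 at E15, where the highest control library was at 0.247. That library also held the choroid plexus marker sum of 11167.3 FPKM, 16.3 FPKM of Cox7a1 and 22.2 FPKM of Cox6b2, and their relation was not tested. Cox7b2 was at 18.3 FPKM in running rep2, where the highest control library was at 0.234 and the other running libraries listed it at 0.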

How the results depend on the processing

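None of the 54 differences of named genes changed sign under any alternative run. Over these and all alternatives, 1223 values kept their side of the threshold, and those of them not past it moved by less than their standard error. Where that error was large, the size could still change much. The interaction of Cox6b2 between E15 and P5 went from -1.23 to -0.19 without E15 VPA rep3 and is among the 1223. Of the rest, 19 stayed short of the threshold but moved by more than their standard error, 41 passed a threshold they had missed and 12 no longer passed. Medians of the set that lay near 0 did change sign: that of VPA at E15 ran from -0.11 to 0.07 when leaving out 1 library, that of P5 against E15 controls from -0.13 to 0.05 over the other settings, that of running against sedentary VPA mice from -0.04 to 0.08 when leaving out 1 library, that of 12 weeks against P5 controls from -0.02 to 0.06 over the other settings, and that of the difference in VPA effect between E15 and P5 from -0.03 to 0.14 when leaving out 1 library. The count of respiratory genes past the threshold was 0 for VPA at E15 throughout. For VPA at P5 it was 1 (Cox7a2l) in place of 0 with small RNA genes removed and with library weights, and 0 to 1 when leaving out 1 library. For VPA at 12 weeks it was 1 (Atp5e) in the fit of all 21 libraries, where 8 passed for running against sedentary VPA mice and 4 for running against control. All genes past the threshold in these 3 comparisons numbered 533, 1698 and 886 in that fit, and 0 each in the fit of the 12-week libraries. For P5 against E15 controls, 2 passed with median-of-ratios scaling, 1 with quantile scaling, 36 with library weights, 21 in the fit of the compared groups, and 0 to 4 when leaving out 1 library, with 4 without running rep3. For 12 weeks against P5 controls, 3 became 2 to 4, and 2 to 5 when leaving out 1 library, with 5 without 12-week control rep1. For the difference in VPA effect between E15 and P5, 4 passed with library weights. Between P5 and 12 weeks it was 0 to 1 when leaving out 1 library. The replicate block left the E15 count at 0 and took the 12-week count against P5 to 2, with Sdha at an adjusted p of 0.0917. With the block the calls among all genes went from 298 to 70 for VPA at P5 and from 5 to 4 at E15. The causes of these changes were not tested. Read depth is unknown, so the limit it sets on low genes could not be given. The 3 libraries per group and the larger spread at 12 weeks limit what could be detected there.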
